A study of Mus musculus with 6 samples.

Results

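Genes of spermatids, the haploid cells that form after meiosis, were examined in cultures of mouse spermatogonial stem cells. The set holds 34 genes chosen by symbol, out of 20284 named genes on the array. Captopril cultures received 0.01 M captopril, an inhibitor of angiotensin-converting enzyme, for 24 h, and water cultures received sterile water, to which the labels give the same 0.01 M. Both groups came from dissociated testis cells that were passaged and then kept on mouse embryonic fibroblasts as feeder cells, and RNA of the whole culture was hybridised to single-colour Agilent arrays. Each group has 3 arrays with the replicate numbers 2, 3 and 4, from independent experiments per the series' design text. Strain, age and whether the experiments used separate animals are not given in the sources used here, so the p-values measure the spread between these cultures. The series' title concerns somatic angiotensin-converting enzyme and self-renewal, and the comparison asks here whether transcripts of the postmeiotic programme are present in these cultures and whether they differ with captopril.

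After meiosis, round spermatids elongate, build an acrosome and a flagellum, and replace histones first with transition proteins and then with protamines. Many of the genes are transcribed early and translated only later, and the activator CREM binds cyclic AMP response elements in a number of their promoters. Spermatogonial stem cells stand at the other end of this lineage and self-renew before meiosis.

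Transcripts of some of the 34 genes were measured in these cultures and those of others were not. A probe counts here as well above background where the scanner program flagged its spot so, and a gene where any of its probes was flagged. By this count 16 genes were well above background on all 6 arrays, 2 on 5 arrays, 5 on a single array and 11 on none. No gene was so on 2 to 4 arrays, a range that holds 3.5% of all named genes. At least 3 arrays were reached by 18 of 34 genes (52.9%), against 14882 of all 20284 named genes (73.4%). The count of genes well above background was 19, 19 and 18 on captopril replicates 2, 3 and 4, against 18, 18 and 19 on water replicates 2, 3 and 4, so the groups overlapped. Under the program's weaker flag for a signal that is positive and significant, 28 of the 34 reached 3 arrays. The share of all named genes under that flag is not given here, and the 73.4% belongs to the stricter flag.

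**Figure D1:**
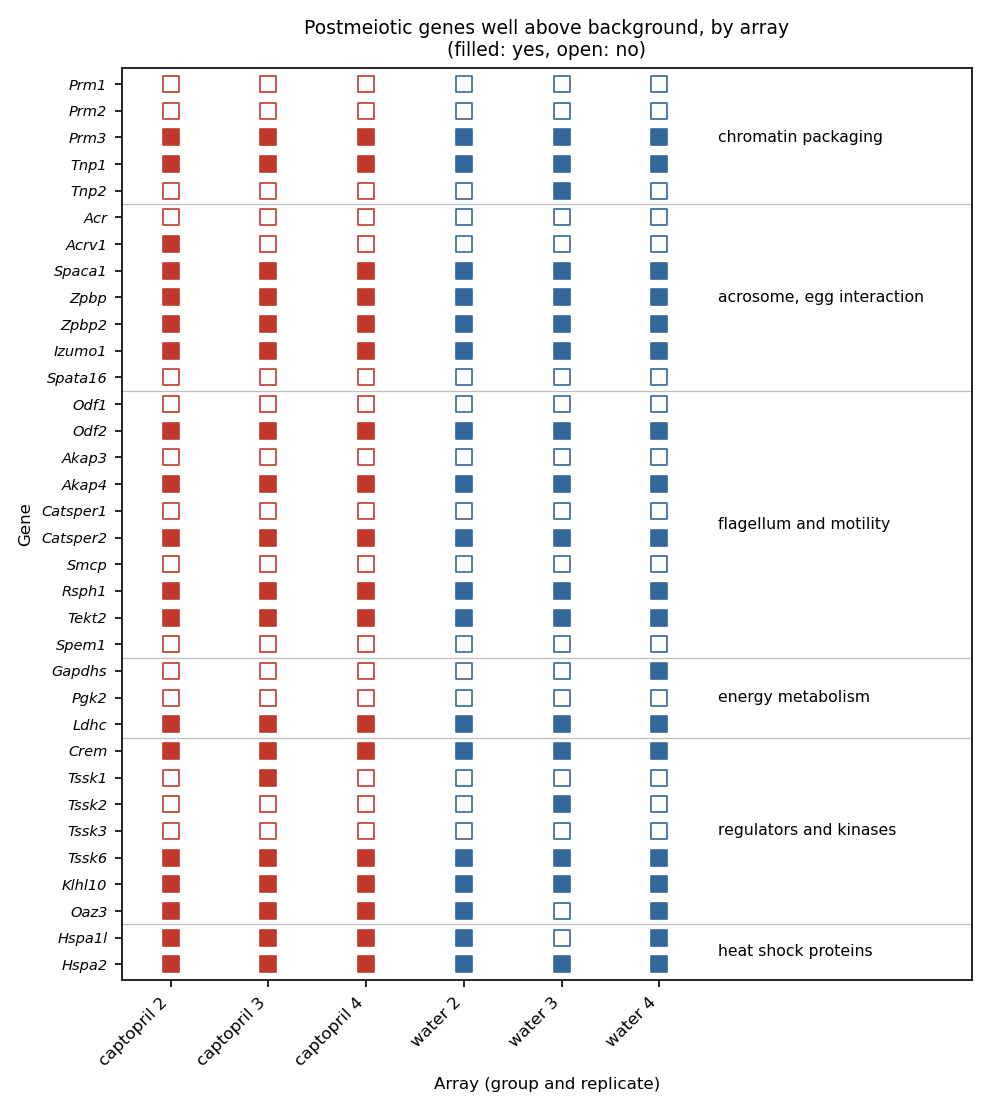
Each row is a postmeiotic gene and each column an array, with captopril arrays (red) left of water arrays (blue). A filled square marks a gene with at least 1 probe well above background on that array. Of the 34 rows, 16 are filled throughout and 11 are empty throughout.

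Genes of chromatin packaging differed within families. Tnp1, which encodes transition protein 1, was well above background on all 6 arrays, and Tnp2, which encodes transition protein 2, on water replicate 3 alone. Prm1 and Prm2, the protamine genes, were well above background on no array. Prm3, which the RefSeq coordinates place between Prm2 and Tnp2 on chromosome 16, gave opposite answers from its pair of probes. One was well above background on all 6 arrays, and the other on captopril replicate 3 and water replicate 3. Both carry the same accession, so the Prm3 level is uncertain.

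Of the acrosome genes, Spaca1 (a membrane protein of the acrosome), Zpbp and Zpbp2 (proteins that bind the egg coat) and Izumo1 (the sperm protein needed for fusion with the egg) were well above background on all 6 arrays. Acr, the gene of the protease acrosin, and Spata16, which acts in acrosome formation, were on none. Acrv1, an acrosomal matrix protein, was on captopril replicate 2 alone. Of the flagellar genes, Odf2 (an outer dense fibre protein that centrioles of other cells also use), Akap4 (fibrous sheath), Catsper2 (a pore subunit of the sperm calcium channel), Rsph1 (radial spokes) and Tekt2 (tektin) were well above background on all 6 arrays. Odf1, Akap3, Catsper1, Smcp and Spem1 were on none.

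The sperm-specific enzymes of glycolysis were also divided. Ldhc, the lactate dehydrogenase of germ cells, was well above background on all 6 arrays, Gapdhs on water replicate 4 alone and Pgk2 on none. The genes of their counterparts in other tissues, Ldha, Ldhb, Gapdh and Pgk1, were well above background on all 6 arrays. Among the regulators, Crem, the kinase gene Tssk6 and the ubiquitin ligase adaptor gene Klhl10 were well above background on all 6 arrays, and the antizyme gene Oaz3 on 5. Of its relatives among the 34 genes, Tssk1 was so on captopril replicate 3 alone, Tssk2 on water replicate 3 alone and Tssk3 on no array. Tssk5, a further kinase gene of this family outside the 34, was so on all 6. The chaperone gene Hspa2 was well above background on all 6 arrays and Hspa1l on 5.

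Markers of other cells were read on the same arrays. All 12 markers of undifferentiated spermatogonia, all 6 of differentiating spermatogonia, all 13 of spermatocytes and all 10 of fibroblasts reached 3 arrays, as did 5 of 9 Sertoli cell markers, 1 of 5 Leydig cell markers, 5 of 5 peritubular myoid cell markers and 4 of 4 macrophage markers on the array. A list of 12 spermatid markers, all of them among the 34 genes, had 4 at this level, and Prm1, Prm2, Acr, Odf1 and Smcp were on no array. The summed level of those 4, in multiples of each array's 75th percentile of signal, was 2.29, 2.52 and 2.60 on captopril replicates 2, 3 and 4, against 2.51, 3.93 and 2.33 on water replicates 2, 3 and 4. The high value belongs to water replicate 3, on which the sum over all genes tested was also the highest of the 6 arrays. In RNA of a whole culture, fewer cells of a type and less RNA per cell cannot be told apart.

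**Figure D2:**
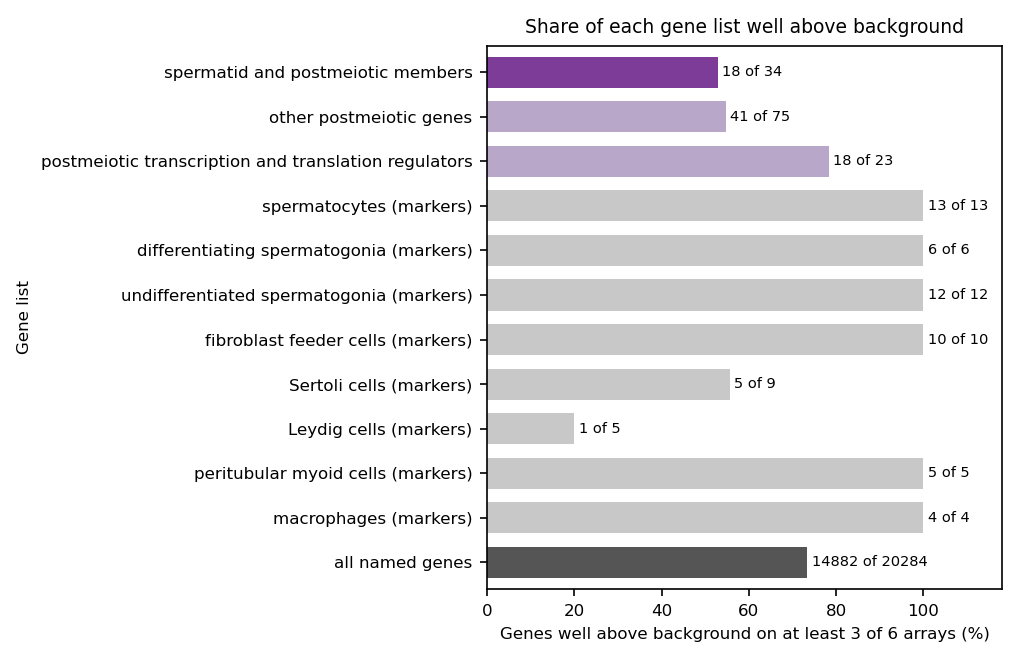
Bars give the percentage of each gene list that was well above background on at least 3 of 6 arrays, with the count beside each bar. The 34 postmeiotic genes stand at 52.9% and the further 75 postmeiotic genes at 54.7%, below all named genes at 73.4% and below the spermatogonial and spermatocyte markers at 100%.

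The further genes of the postmeiotic programme had a like share. Of 77 listed genes outside the 34, 75 were on the array, 41 of them reached 3 arrays (54.7%) and 29 were on no array. Of 23 genes that regulate postmeiotic transcription and translation, 18 reached 3 arrays. That share (78.3%) was higher, and close to the 73.4% of all named genes. Fhl5, whose product is a coactivator of CREM in the testis, and Papolb, a testis-specific poly(A) polymerase gene, were on no array. Tbpl1, a TBP-like factor needed by spermatids, and Kif17, a motor that carries the CREM coactivator, were on all 6.

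Promoters are shown here because they are the sequence that CREM reads and because the genes split by detection. RefSeq promoters of build GRCm38.p6, from 250 bases before to 50 bases after a start, were found for 28 of the 34 genes. They were searched on both strands for the cyclic AMP response element TGACGTCA and for its half-site TGACG, which the full element contains on each strand. The half-site was present in 9 of the 15 genes that reached 3 arrays and in 1 of the 13 that did not. A gene counts where any of its promoters holds the half-site. The same shares over all named genes were 32.7% of 11838 genes that reached 3 arrays and 13.9% of 4257 that did not. Of all 27025 genes with a promoter, 23.0% hold it. The half-site contains a CG dinucleotide, and the median number of CG dinucleotides per promoter differed likewise, at 11 against 2.5 in the 34 genes and 19 against 3 over all named genes, so its part in this split was not tested. The full element was found in Izumo1 alone of the 28, and in 2.03% of all 27025 genes with a promoter. Below, Izumo1, Ldhc and Hspa2 are genes well above background on all 6 arrays that hold a half-site, Tnp1 is well above background on all 6 arrays with none, and Tnp2 and Prm1 are genes below 3 arrays with none. Sequences read 5′ to 3′ on the strand of the gene, and capitals mark the half-site or full element.
Izumo1, chr7:45621561-45621860, + strand: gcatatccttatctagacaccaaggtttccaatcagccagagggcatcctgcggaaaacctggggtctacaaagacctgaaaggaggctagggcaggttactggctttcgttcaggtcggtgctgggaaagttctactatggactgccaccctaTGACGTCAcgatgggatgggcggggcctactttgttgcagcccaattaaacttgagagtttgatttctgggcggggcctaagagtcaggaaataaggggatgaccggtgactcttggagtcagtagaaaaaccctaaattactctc
Ldhc, chr7:46861013-46861312, + strand: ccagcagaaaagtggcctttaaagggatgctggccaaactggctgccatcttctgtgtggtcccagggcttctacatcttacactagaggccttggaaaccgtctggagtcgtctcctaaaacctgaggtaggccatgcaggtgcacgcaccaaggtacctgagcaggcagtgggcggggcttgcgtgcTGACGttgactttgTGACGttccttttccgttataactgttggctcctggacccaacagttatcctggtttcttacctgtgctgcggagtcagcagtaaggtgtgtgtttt
Hspa2, chr12:76404120-76404419, + strand: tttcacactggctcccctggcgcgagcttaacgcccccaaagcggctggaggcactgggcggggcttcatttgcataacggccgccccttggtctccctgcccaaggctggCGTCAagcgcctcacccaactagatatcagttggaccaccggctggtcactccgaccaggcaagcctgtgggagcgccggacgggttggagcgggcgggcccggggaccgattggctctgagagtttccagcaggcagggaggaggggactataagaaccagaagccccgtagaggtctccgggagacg
Tnp1, chr1:73015850-73016149, - strand: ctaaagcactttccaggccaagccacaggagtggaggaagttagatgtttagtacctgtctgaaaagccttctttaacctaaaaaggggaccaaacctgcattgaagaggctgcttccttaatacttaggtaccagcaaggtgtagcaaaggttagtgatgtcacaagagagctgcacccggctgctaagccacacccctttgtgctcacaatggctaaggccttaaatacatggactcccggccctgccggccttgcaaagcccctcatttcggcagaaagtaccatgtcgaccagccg
Tnp2, chr16:10788606-10788905, - strand: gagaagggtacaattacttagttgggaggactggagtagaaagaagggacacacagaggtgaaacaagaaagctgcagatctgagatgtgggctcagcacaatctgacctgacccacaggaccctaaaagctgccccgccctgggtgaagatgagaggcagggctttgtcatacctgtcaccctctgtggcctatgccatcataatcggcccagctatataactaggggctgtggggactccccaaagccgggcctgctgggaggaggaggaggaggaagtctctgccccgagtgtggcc
Prm1, chr16:10796774-10797073, - strand: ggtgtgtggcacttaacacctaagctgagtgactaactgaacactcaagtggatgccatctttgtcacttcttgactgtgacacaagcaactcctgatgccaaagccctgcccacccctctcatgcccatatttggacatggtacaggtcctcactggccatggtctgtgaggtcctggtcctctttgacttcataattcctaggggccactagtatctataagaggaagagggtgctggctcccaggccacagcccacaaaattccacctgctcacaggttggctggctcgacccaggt
The match in Izumo1 begins at position −96 from the start. Those in Ldhc begin at −61 and −47, and the one in Hspa2, read on the opposite strand, at −139. Ldhc has a further promoter, of a later start, that holds no half-site and is not printed here. A match describes letters only, and no match says only that these letters are not in this window. Variants of the element or half-site that differ in a letter were not searched.

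Water replicate 3 stood apart from all other arrays. Over the 14860 genes tested, Pearson correlations that involve it were 0.884 to 0.90, and those among the remaining 5 arrays were 0.967 to 0.992. Across arrays 52.2% to 60.5% of spots were well above background, with the lowest share on water replicate 3. Fibroblast markers summed to 145 to 179 on captopril arrays, against 174, 294 and 158 on water replicates 2, 3 and 4, in multiples of the 75th percentile. This rise was not particular to fibroblast markers. The sum over all genes tested was 69400 on water replicate 3, against 47500 to 58300 on the other arrays. Fold changes of the genes are therefore given with and without that array, and leaving it out keeps 3 captopril and 2 water arrays. All arrays lie on 1 slide, where water replicates 2 and 3 occupy slide row 1 and the other 4 arrays slide row 2.

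No postmeiotic gene passed the test between captopril and water. The 18 genes that reached 3 arrays were tested among 14860 with limma and Benjamini-Hochberg adjustment, and 0 of the 18 had an adjusted p under 0.05, as did 0 of all genes (0%). Their adjusted p lay between 0.587 and 0.995. At an unadjusted p under 0.05 there was 1 of the 18, Hspa2, where 8.24% of all genes were. Without water replicate 3 the count was again 0 of 18, against 92 of 14860 genes (0.619%), and the smallest adjusted p was 0.117. In that fit 3 of the 18, Crem, Oaz3 and Hspa2, had an unadjusted p under 0.05, where 19.1% of all genes had.

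The log2 fold changes (captopril minus water) of the 18 genes ranged from −1.23 to 0.99, with 11 positive and 7 negative values. Their median was 0.03, against −0.03 over all genes tested, of which 46.7% were positive. Without water replicate 3 there were 16 positive and 2 negative values and the median was 0.26, against 0.07 over all genes, of which 58.5% were positive. The sign of 5 genes turned between these fits. With each array scaled by its median instead of its 75th percentile, the median of all genes moved to −0.33 over 6 arrays and that of the 18 genes to −0.27, so that their signs depend on the scaling. Without water replicate 3 that scaling gave 13 positive values and a median of 0.12, against −0.06 over all genes, of which 42.1% were positive. Within slide row 2, which has a single water array, the median was 0.28 and 16 values were positive, against 0.11 and 60.6% over all genes.

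**Figure D3:**
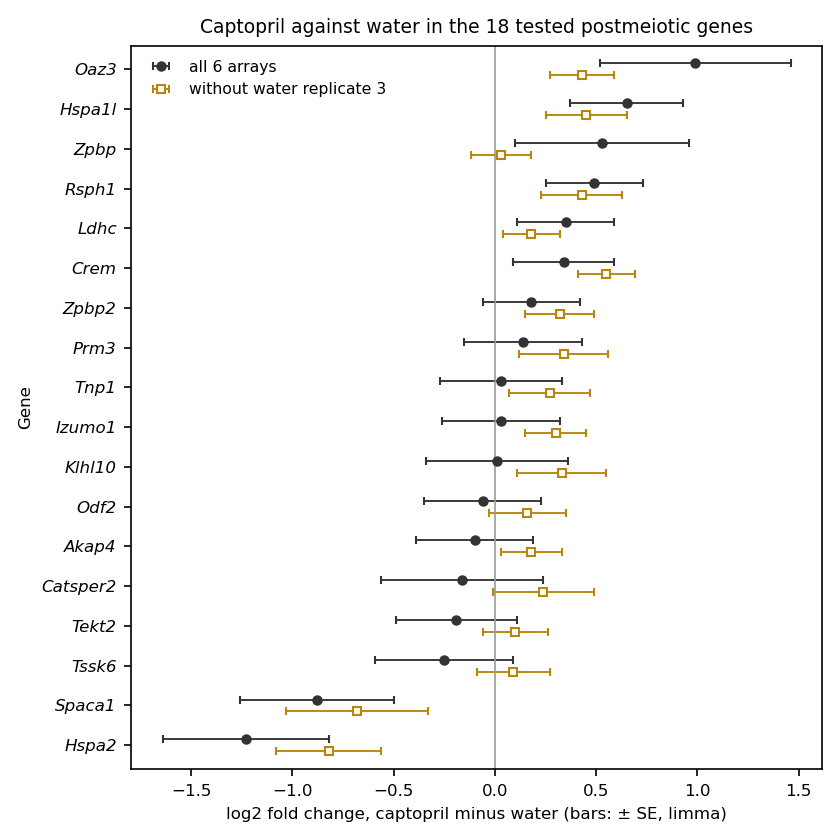
Points are log2 fold changes of the 18 tested genes, captopril minus water, with bars of ± SE from limma. Filled circles use all 6 arrays and open squares leave out water replicate 3. No gene passed an adjusted p of 0.05 in either fit, and Hspa2 at −1.23 and Spaca1 at −0.88 are the genes with negative values in both.

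The 2 genes whose captopril arrays all lay below all water arrays were Hspa2 and Spaca1. Over all genes 11.4% lay so. Levels below are log2 signals relative to the 75th percentile of each array. Hspa2, a 70-kDa class chaperone of spermatocytes and spermatids, stood at 0.32, 0.88 and 0.00 on captopril replicates 2, 3 and 4, against 1.18, 2.45 and 1.26 on water replicates 2, 3 and 4. The groups did not overlap, and water replicate 3 was the highest array. Its mean was 0.40 ± 0.44 with captopril and 1.63 ± 0.71 in water (SD, n = 3 each), and the log2 fold change was −1.23 (SE 0.41, limma adjusted p = 0.587). Without water replicate 3 it was −0.82 (SE 0.26, adjusted p = 0.169), and within slide row 2 −0.86.

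Spaca1 stood at −0.43, −0.70 and −1.67 on captopril replicates 2, 3 and 4, against −0.26, 0.36 and −0.25 on water replicates 2, 3 and 4. Captopril replicate 4 was far below the other captopril arrays, and captopril replicate 2 lay just under the water arrays. The log2 fold change was −0.88 (SE 0.38, limma adjusted p = 0.605), and −0.68 (SE 0.35, adjusted p = 0.332) without water replicate 3. The other Spaca1 probe gave −1.13 over 6 arrays and −0.34 without water replicate 3, where it was 2.37 above the mean of the other water arrays.

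The 4 genes whose captopril arrays all lay above all water arrays were Oaz3, Hspa1l, Rsph1 and Ldhc, where 10.0% of all genes lay so. Oaz3, the antizyme of spermatids that inhibits ornithine decarboxylase, stood at −3.44, −3.44 and −3.23 on captopril replicates 2, 3 and 4, against −3.66, −5.47 and −3.95 on water replicates 2, 3 and 4. It was not well above background on water replicate 3, which holds the low value. The log2 fold change was 0.99 (SE 0.47, limma adjusted p = 0.616), and 0.43 (SE 0.16, adjusted p = 0.229) without that array. Hspa1l, an Hsp70 gene expressed in the testis, stood at −4.28, −4.27 and −4.41 on captopril replicates 2, 3 and 4, against −5.06, −5.36 and −4.49 on water replicates 2, 3 and 4. It too was not well above background on water replicate 3, and its captopril replicate 4 lay only just above water replicate 4. Its log2 fold change was 0.65 (SE 0.28, adjusted p = 0.606), 0.45 without water replicate 3 and 0.17 within slide row 2.

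Rsph1 stood at −0.34, −0.33 and 0.16 on captopril replicates 2, 3 and 4, against −0.55, −0.77 and −0.65 on water replicates 2, 3 and 4. Here water replicate 3 lay close to its group, and the log2 fold change was 0.49 (SE 0.24, limma adjusted p = 0.618) over 6 arrays and 0.43 (SE 0.20, adjusted p = 0.287) without it. The other Rsph1 probe read 0.45, 0.42 and 0.24 on captopril replicates 2, 3 and 4, against 0.27, −4.76 and 0.17 on water replicates 2, 3 and 4, and its spot on water replicate 3 was not flagged as well above background. Ldhc stood at 0.56, 0.58 and 0.70 on captopril replicates 2, 3 and 4, against 0.51, −0.08 and 0.36 on water replicates 2, 3 and 4. Its captopril replicate 2 lay just above water replicate 2, and the log2 fold change was 0.35 (SE 0.24, adjusted p = 0.644) over 6 arrays and 0.18 (SE 0.14, adjusted p = 0.523) without water replicate 3. The other Ldhc probe, also well above background on all 6 arrays, did not separate the groups. It read −0.05, −0.14 and 0.39 with captopril, against −0.08, 0.36 and −0.37 in water. Its difference was 0.09 over 6 arrays and 0.29 without water replicate 3.

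**Figure D4:**
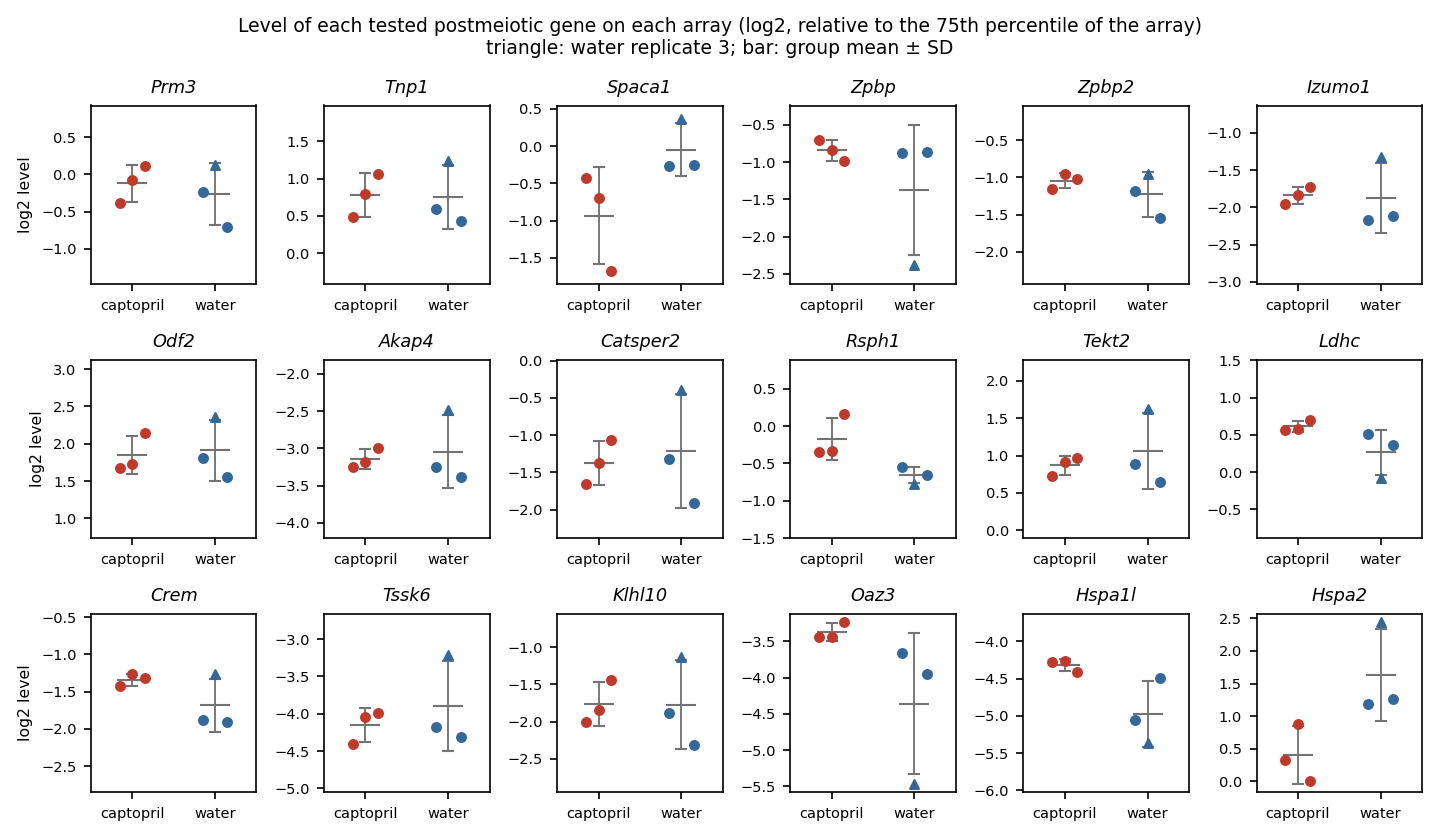
Points give the log2 level of each of the 18 tested genes on each array, relative to the 75th percentile of that array, with captopril (red) left of water (blue). Triangles mark water replicate 3 and bars the group mean ± SD (n = 3 each). In Hspa2 and Spaca1 every captopril point lies below every water point, and in Oaz3, Hspa1l, Rsph1 and Ldhc every captopril point lies above.

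Crem had the smallest adjusted p of the 18 without water replicate 3. Whether its probes read transcripts of the activator was not tested. It stood at −1.43, −1.27 and −1.32 on captopril replicates 2, 3 and 4, against −1.88, −1.27 and −1.91 on water replicates 2, 3 and 4. Water replicate 3 alone reached the captopril levels, so the groups overlapped over 6 arrays. The log2 fold change was 0.34 (SE 0.25, limma adjusted p = 0.646), and 0.55 (SE 0.14, adjusted p = 0.117) without that array. The other probes of Crem did not repeat this: they gave −0.33 and −0.09 over 6 arrays, and −0.02 and −0.04 without water replicate 3. Without that array 7 of the 18 genes had captopril arrays above both water arrays and 2 had them below, where 27.2% and 15.7% of all genes did.

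Tnp1 stood at 0.48, 0.79 and 1.07 on captopril replicates 2, 3 and 4, against 0.59, 1.24 and 0.43 on water replicates 2, 3 and 4. These values overlapped throughout, and the log2 fold change was 0.03 (SE 0.30, limma adjusted p = 0.984), and 0.27 (SE 0.20) without water replicate 3. Prm3, by its brighter probe, stood at −0.38, −0.08 and 0.11 on captopril replicates 2, 3 and 4, against −0.23, 0.13 and −0.70 on water replicates 2, 3 and 4, and overlapped too (0.14, SE 0.29, and 0.34, SE 0.22, without water replicate 3).

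Among the acrosome genes, Izumo1 stood at −1.95, −1.84 and −1.73 on captopril replicates 2, 3 and 4, against −2.17, −1.33 and −2.11 on water replicates 2, 3 and 4. Water replicate 3 lay above and the other water arrays below all captopril arrays, and the log2 fold change was 0.03 (SE 0.29) with that array and 0.30 (SE 0.15) without it. Zpbp stood at −0.70, −0.84 and −0.98 on captopril replicates 2, 3 and 4, against −0.88, −2.38 and −0.86 on water replicates 2, 3 and 4. Its value of 0.53 (SE 0.43) rested on water replicate 3, and without that array it was 0.03 (SE 0.15). Zpbp2 stood at −1.16, −0.96 and −1.02 on captopril replicates 2, 3 and 4, against −1.18, −0.95 and −1.55 on water replicates 2, 3 and 4, which overlapped (0.18, SE 0.24, and 0.32, SE 0.17, without water replicate 3).

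In the flagellar genes Odf2, Akap4, Catsper2 and Tekt2, by the probes tested, water replicate 3 was the highest of the 6 arrays. This pattern was not particular to them, since it also held in Tnp1, Izumo1 and Hspa2, among others. Odf2 stood at 1.67, 1.73 and 2.14 on captopril replicates 2, 3 and 4, against 1.81, 2.36 and 1.56 on water replicates 2, 3 and 4. The other Odf2 probe read water replicate 3 lowest instead, at −3.74. It gave 0.54 over 6 arrays and −0.17 without water replicate 3. Akap4 stood at −3.25, −3.18 and −2.99 with captopril, against −3.25, −2.49 and −3.39 in water, and Catsper2 at −1.66, −1.38 and −1.07 against −1.32, −0.40 and −1.91. Tekt2 stood at 0.73, 0.91 and 0.97 with captopril, against 0.89, 1.63 and 0.65 in water. In all 4 genes the groups overlapped, and the log2 fold change was −0.06, −0.10, −0.16 and −0.19 over 6 arrays and 0.16, 0.18, 0.24 and 0.10 without water replicate 3, in the order named. Tssk6 and Klhl10 showed this pattern as well. Tssk6 stood at −4.41, −4.05 and −3.99 with captopril, against −4.18, −3.21 and −4.31 in water, and Klhl10 at −2.01, −1.84 and −1.44 against −1.88, −1.13 and −2.31. Their log2 fold changes were −0.25 (SE 0.34) and 0.01 (SE 0.35), and 0.09 and 0.33 without that array.

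The spread of these genes within groups was that of the array as a whole. The median SD of the 18 genes was 0.18 over captopril arrays and 0.46 over water arrays, against 0.20 and 0.45 over all genes tested. Water replicate 3 lay above both other water arrays in 13 of the 18 genes and below both in 5, as it did in 65.9% and 28.0% of all genes. It differed from the mean of the others by at least 1 log2 unit in 5 of the 18, and in 30.3% of all genes.

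In several of the 8 genes with more than 1 probe, probes of the same gene read water replicate 3 differently. Relative to the mean of water replicates 2 and 4, water replicate 3 read −2.14 and 0.68 by the probes of Odf2, which, like those of Zpbp2, carry different transcript accessions. For Rsph1 it read −4.98 and −0.16, for Zpbp2 0.42 and 2.47, and for Ldhc −0.51 and 0.59. The probes of Akap4 read it alike, at 0.83 and 0.73, and those of Crem, Prm3 and Spaca1 all read it above the others, by 0.14 to 0.93, 0.60 to 2.19 and 0.61 to 2.37. The captopril means, set against the same pair of water arrays, lay between −0.68 and 0.55 for all 17 of these probes. Whether a probe also binds other transcripts was not tested.

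**Figure D5:**
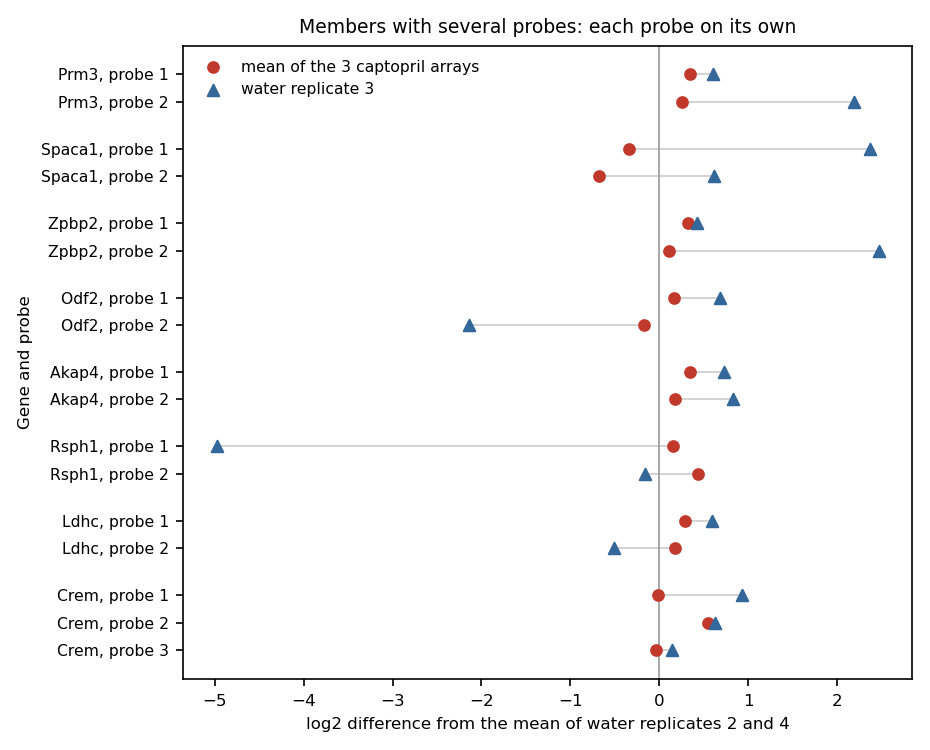
For each probe of the 8 genes with several probes, the circle gives the mean of the 3 captopril arrays and the triangle water replicate 3, as log2 differences from the mean of water replicates 2 and 4. The captopril means lie between −0.68 and 0.55, whereas water replicate 3 lies between −4.98 and 2.47 and differs between probes of 1 gene in most of the 8, though not in Akap4.

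The 16 genes below 3 arrays have no level that can be compared with confidence. Acrv1 read −4.78, −4.86 and −4.94 on captopril replicates 2, 3 and 4, against −5.71, −4.96 and −6.86 on water replicates 2, 3 and 4, and only captopril replicate 2 was well above background. Gapdhs read −7.55, −5.58 and −4.94 on captopril replicates 2, 3 and 4, against −5.96, −4.96 and −3.53 on water replicates 2, 3 and 4, and only water replicate 4 was well above background. Signals not above background have no reliable order, so no fold is given for any single gene of the 16. Tnp2 and Tssk2 were measured on water replicate 3 alone, the array that stands apart. When all genes were tested without the filter on dim probes, 0 of these 16 passed (smallest adjusted p 0.525 by limma), as did 0 of 20268 genes (0%). By range, 4 of the 16 had all captopril arrays above all water arrays and 0 had them below, where 8.62% and 9.05% of all genes did. Of those 4, Acrv1 was well above background on 1 array and Spata16, Spem1 and Tssk3 on none. Their order is therefore not reliable. The log2 fold changes of the 16 ran from −1.20 to 1.26, likewise on signals mostly not above background.

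Of the further postmeiotic genes, 41 were tested and 0 passed, over 6 arrays or without water replicate 3. Their median log2 fold change was 0.14, with 29 positive and 12 negative values, and 0.29 with 27 and 14 without that array. Over all genes the medians were −0.03 and 0.07, and 46.7% and 58.5% of values were positive. Of the 41, the genes with the smallest p were Catsper4, another subunit of the sperm calcium channel (0.83, SE 0.22, limma adjusted p = 0.510), Tsga10 (1.28, SE 0.36, adjusted p = 0.517) and Ly6k (−1.01, SE 0.29, adjusted p = 0.517). Without water replicate 3 they gave 0.74, 0.89 and −0.85, with adjusted p of 0.0838, 0.0649 and 0.150. Tsga10 stood at −2.12, −1.86 and −1.90 on captopril replicates 2, 3 and 4, against −2.75, −4.00 and −2.96 on water replicates 2, 3 and 4, without overlap. Among the regulators 18 were tested and 0 passed, with a median of −0.04 over 6 arrays and 0.03 without water replicate 3. Brdt, a testis bromodomain protein that acts in meiotic and postmeiotic chromatin, had the smallest p. It stood at −1.77, −1.78 and −1.58 on captopril replicates 2, 3 and 4, against −0.94, 0.61 and −0.76 on water replicates 2, 3 and 4, and its log2 fold change was −1.35 (SE 0.42, adjusted p = 0.555), or −0.86 (SE 0.15, adjusted p = 0.063) without water replicate 3. Rfx3 gave 0.53 over 6 arrays and 0.48 without water replicate 3. Sox30 gave −1.01 and, without that array, −0.45, since water replicate 3 stood at −1.38 and the other water arrays at −3.17 and −2.96. The 9 measured counterpart genes of other tissues had a median of 0.02, or 0.03 without water replicate 3, with 0 past the test. Creb1, a relative of Crem, had the smallest p of these (−1.15, SE 0.61, limma adjusted p = 0.628), and gave −0.76 (SE 0.58) without that array. It stood at −2.53, −2.36 and −4.42 with captopril, against −2.23, −1.18 and −2.46 in water, so captopril replicate 4 lay far below the rest. Pgk1 gave −0.36 and Oaz2 0.22, and without water replicate 3 −0.10 and 0.26.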

How the data were processed

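RNA of 6 cultures was measured on 6 single-colour Agilent arrays. The spot intensity values were made by the authors with Feature Extraction, Agilent's scanner program (11.5.1.1 per the file headers, 10.7 per the submitters' processing notes), which subtracted background within each array per the file headers. The log2 values of the deposited table are log2 of this processed signal minus a constant per array (r = 1 with it on every array; medians −3.73, −3.64 and −3.63 on captopril replicates 2, 3 and 4 and −3.81, −4.25 and −3.79 on water replicates 2, 3 and 4). No source used here says how the authors chose that constant, and the table served as one of the alternatives.

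For the main values, each array's 75th percentile of the processed signal was subtracted on the log2 scale. Control and outlier spots were left out, spots of a probe were averaged, and 26762 of 55681 probes took 1 symbol through their accession in the RefSeq table of GRCm38.p6, with 28919 unnamed. The array design names another build (mm9), so no probe coordinates are given. Each gene was read by the brightest of its probes that were flagged well above background on 3 or more arrays. Captopril was tested against water with limma 3.58.1 under R 4.3.3 (two-sided, Benjamini-Hochberg over 14860 genes, threshold 0.05), after a test on simulated data. On simulated data for 6 arrays, the fit called 1 of 100 genes changed 2-fold and 49 of 100 changed 4-fold. A gene that was not called is therefore not shown to be unchanged. Tables and plots used Python 3.11.15, pandas 2.3.3 and matplotlib 3.10.9. Alternatives were other background corrections, scalings, filters, probe rules, blocks and each array left out. Precision is limited by the number of arrays.

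The members, lists and tests were chosen with earlier results of these data known. All 34 genes are accounted for, those that reached 3 arrays with their values on every array, and of each other list at most the 3 genes with the smallest p were to be named. Genes named for their flags alone, outside this rule, were chosen after their values were seen.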

Additional observations from a re-analysis of the deposited data

How the results depend on the processing

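No member was called under any alternative run, and the smallest adjusted p of a member was 0.112, for Crem without water replicate 3 and with quantile normalization. limma called 92 of all genes without water replicate 3. On the remaining arrays it called 39 with median scaling and 0 with quantile normalization, both choices made after seeing the data. In every other alternative over 6 or fewer arrays it called 0. Leaving out 1 array at a time gave 0 to 92 called genes, a members' median of −0.11 to 0.26, and 18 members reaching the detection limit each time. Median scaling moved the members' median to −0.27, and the weaker detection flag raised their number to 28, with no share of all genes beside it. The replicate number as a block called 0 genes and left the median at 0.03. Deviations of same-numbered arrays correlated at −0.015, 0.022 and −0.192, and those of differently numbered arrays at −0.125 to 0.254. With 3 arrays per group, these values cannot decide whether same-numbered arrays come from a shared experiment. With the slide row as a block the members' median was 0.28.

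Of the 18 tested members, 7 kept their sign throughout. The others, none of them called, took the opposite sign under some settings. Median scaling and the authors' table shifted all members by nearly the same amount, so signs that turned there follow from the scaling of all genes. For the other settings the cause was not tested. These log2 fold changes were, with normexp, Klhl10 −0.09; with quantile normalization, Izumo1 −0.10, Klhl10 −0.11 and Odf2 0.02; with median scaling, Izumo1 −0.27, Klhl10 −0.29, Prm3 −0.16, Tnp1 −0.27 and Zpbp2 −0.13. The mean of a gene's probes gave Odf2 0.24 and Zpbp2 −0.27, the authors' table Izumo1 0.00, Klhl10 −0.02 and Tnp1 −0.01, and the slide row block, as slide row 2 alone, Akap4 0.25, Catsper2 0.53, Odf2 0.29, Tekt2 0.22 and Tssk6 0.16. Without water replicate 3 they were Akap4 0.05, Catsper2 0.11, Odf2 0.03 and Zpbp −0.10 with median scaling, and Akap4 0.07, Catsper2 0.19, Odf2 0.12, Tekt2 0.08 and Zpbp 0.00 with quantile normalization. Leaving out 1 array at a time gave the ranges Akap4 −0.28 to 0.18, Catsper2 −0.51 to 0.24, Izumo1 −0.12 to 0.30, Klhl10 −0.26 to 0.33, Odf2 −0.24 to 0.16, Prm3 −0.07 to 0.34, Tekt2 −0.39 to 0.10, Tnp1 −0.13 to 0.27, Tssk6 −0.46 to 0.09.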

Other observations

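Some of the 75 further postmeiotic genes on the array are given here by their flags alone. They were chosen after their values were seen, no groups of them were compared and no test was made. Of genes that act in the flagellum, Tekt1, Tekt4, Spag16, Rsph9 and Rsph6a were well above background on all 6 arrays, Spag17 on 1, and Spag6, Tekt3 and Dnah17 on none. Of sperm surface genes, Ly6k, Tex101 and Spaca4 were well above background on all 6 arrays, and Adam2, Adam3 and Spam1 on none. The linker histone genes of spermatids, H1f7 and Hils1, were on none, and Cyct, the cytochrome c of the testis, was on all 6.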
